A study of Mus musculus with 6 samples.

Results

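The adherens junction genes described here are 9 rows of the deposited count table, chosen by symbol: the cadherins Cdh1 and Cdh3, the catenins Ctnna1, Ctnnb1 and Ctnnd1, the nectins Nectin1 and Nectin4, the nectin adaptor Afdn and the actin linker Vcl. All 9 symbols were found among the 35673 genes of the table, and all 9 passed the filter on low counts, which left 18804 genes for testing. Corneal RNA from male C57BL/6J mice aged 6 to 8 weeks was sequenced in 3 Cationorm and 3 Control libraries. Cationorm is an artificial tear made as a positively charged oil and water nanoemulsion. The protocols describe a contact lens dry eye model built from 0.1% benzalkonium chloride, an eye drop preservative that damages epithelium, together with 6 h of lens wear each day, followed by drops of 5 µL per eye for 14 days. Libraries of both groups carry the same model tag and the same wild-type tag, so the labels leave unsettled whether Control received the model, and Control is used only as the name in the titles. Nothing in the labels says that each library is a separate animal, and p-values here rest on sample-to-sample spread that may be technical in part or in whole.

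Adherens junctions hold neighbouring epithelial cells together below the tight junction. Classical cadherins bind across the gap between cells, and their cytoplasmic tails carry p120-catenin near the membrane and β-catenin further along. β-catenin binds α-catenin, which connects the complex to actin and recruits vinculin under tension. Nectins form a second adhesion system at the same site and reach actin through afadin. In the corneal epithelium E-cadherin is the main classical cadherin, and the junctions keep the stratified layers coherent during blinking and renewal.

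The 9 genes differed by small amounts between the groups. All 9 had a log2 fold change (Cationorm over Control) above 0, from 0.02 for Ctnnd1 to 0.27 for Ctnna1, with a median of 0.15. The median over all genes tested was 0.0055, and 51.2% of genes lay above 0. Ctnnd1 was below 0 when libraries were scaled by total count (-0.0166) or by the epithelial markers (-0.0117). No member passed the quasi-likelihood test of edgeR after Benjamini-Hochberg adjustment over all genes (smallest adjusted p = 0.550), against 0% of all genes called. At an unadjusted p under 0.05 there were 2 members, Ctnna1 and Ctnnb1, both higher in Cationorm, against 5.16% of all genes higher and 8.73% in either direction. Ctnna1 stayed under that p in 15 of 16 other settings, all but the epithelial scaling, while Ctnnb1 did so in 3: both limma-voom fits and the fit without Control 3. DESeq2 called 0 members (smallest adjusted p = 0.287, Ctnna1), against 64 of all genes, 0.197% of the 32423 with a p-value. Only 16789 genes, all 9 members among them, had an adjusted p from DESeq2 and could be called. The groups did not overlap for the same 2 members, Ctnna1 and Ctnnb1, against 14.8% of all genes without overlap in either direction and 8.73% with every Cationorm library above every Control library. In bulk tissue, fewer cells of a type and less RNA per cell cannot be told apart.

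**Figure D1:**
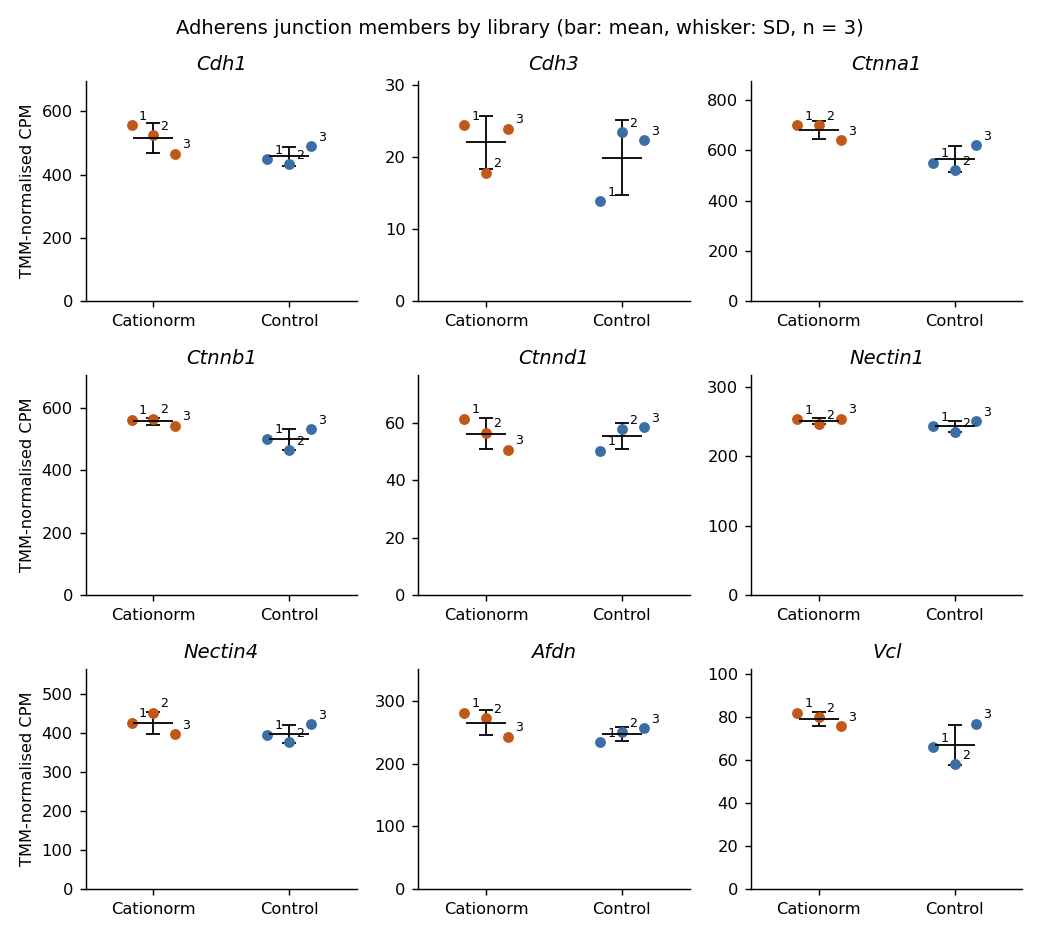
TMM-normalised CPM (counts scaled to library size, with trimmed-mean factors) of each member in the 3 Cationorm and 3 Control libraries, with the library number beside each point, the mean as a bar and the SD as a whisker. Only Ctnna1 and Ctnnb1 have every Cationorm library above every Control library, and the axes start at 0.

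Depth ran from 32486043 counts in Cationorm 1 to 39193311 in Control 1. The defining markers of corneal epithelium were present throughout: the 13 epithelial markers, Krt12 among them, summed to 57147 to 62032 CPM in Cationorm and 55241 to 60921 CPM in Control, and 6 of 13 had a higher mean in Cationorm. Markers of other eye tissues were present too and none of their lists was at 0. The list for melanocytes, iris and ciliary body summed to 1177 to 1493 CPM in Cationorm and 430 to 1054 CPM in Control, with 9 of 9 genes higher in Cationorm and none of them called. The smooth muscle list summed to 263 to 330 CPM in Cationorm and 104 to 227 CPM in Control, with 6 of 6 genes higher and none called. A list of 8 retina markers summed to 745 to 2364 CPM in Cationorm and 1834 to 2838 CPM in Control, with 0 of 8 higher in Cationorm and none called. The lens list summed to 1664 to 6227 CPM in Cationorm and 81.5 to 3113 CPM in Control, and the skeletal muscle list to 87.7 to 1565 CPM in Cationorm and 100.1 to 922 CPM in Control, with all 8 tested genes higher in each. Retinal pigment epithelium markers summed to 362 to 438 CPM in Cationorm and 210.3 to 439 CPM in Control, with 6 of 6 higher. All 6 corneal endothelium and all 5 Schwann cell markers were higher too, as were 4 of 8 keratocyte and 4 of 6 tested immune markers, and none was called. In both the pigment and the smooth muscle lists Control 3 was the highest Control library.

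Cdh1 encodes E-cadherin, the calcium-dependent adhesion receptor of epithelia. Its level was 556, 524 and 466 CPM in Cationorm 1 to 3 and 449, 433 and 489 CPM in Control 1 to 3. Cationorm 3 lay below Control 3, so the groups overlapped. The log2 fold change was 0.17 ± 0.08 (SE, n = 3 each), with a 95% interval of -0.03 to 0.37 and an adjusted p of 0.550 by edgeR.

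Cdh3 encodes P-cadherin, a cadherin of basal epithelial cells that is also found in pigmented epithelia of the eye. It was the least abundant member, at 24.4, 17.8 and 23.9 CPM in Cationorm 1 to 3 and 13.9, 23.5 and 22.4 CPM in Control 1 to 3. Cationorm 2 and Control 1 were low in their groups, and the other 4 libraries lay between 22.4 and 24.4 CPM. Its log2 fold change was 0.15, with a 95% interval of -0.36 to 0.66 (edgeR adjusted p = 0.817), and without Control 1 it was -0.0556. Cdh3 varied most of the members, with a coefficient of variation over all 6 libraries of 20.1%, against 2.88% for Nectin1 and a median of 7.98% over the members.

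P-cadherin and E-cadherin bind the same catenins, so their ratio was followed in each library. Cdh3 counts were 4.39%, 3.40% and 5.14% of Cdh1 counts in Cationorm 1 to 3 and 3.10%, 5.42% and 4.57% in Control 1 to 3. The ratio averaged 4.31 ± 0.87% in Cationorm and 4.36 ± 1.18% in Control (SD, n = 3 each). An exact two-sided permutation test gave p = 1, where 0.1 is the smallest p that 3 against 3 allows. The difference in mean log2 ratio was -0.000734 (Cationorm minus Control), and it lay between -0.229 and 0.175 as each library was left out.

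Ctnna1 encodes αE-catenin, the actin-binding member of the complex. It was at 699, 699 and 639 CPM in Cationorm 1 to 3 and 551, 520 and 620 CPM in Control 1 to 3. Every Cationorm library was above every Control library, with a gap between Cationorm 3 and Control 3 that was small beside the spread within either group. The fold had a 95% interval of 1.05 to 1.38, the log2 fold change was 0.27 ± 0.08 (SE), and the unadjusted p of 0.0130 became 0.550 after adjustment by edgeR. The libraries took the same rank order for Ctnna1 as for the summed smooth muscle markers, with Control 2 lowest and Cationorm 2 highest. The part of those markers in the difference was not tested.

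Ctnnb1 encodes β-catenin, which serves both in the junction and as the transcriptional effector of Wnt signalling. It was at 562, 564 and 543 CPM in Cationorm 1 to 3 and 501, 463 and 531 CPM in Control 1 to 3. The groups were apart by a narrow margin between Cationorm 3 and Control 3. The log2 fold change was 0.16 ± 0.07 (SE), with a 95% interval of 0.000885 to 0.32 and an unadjusted p of 0.0490 (edgeR adjusted p = 0.550). Ulk4, a gene on the opposite strand, shares 14.6% of the exonic length of Ctnnb1 in the GENCODE M21 annotation, and without a stated strand setting its reads cannot be separated there.

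Ctnnd1 encodes p120-catenin, which holds cadherins at the membrane. It was at 61.3, 56.5 and 50.6 CPM in Cationorm 1 to 3 and 50.2, 57.7 and 58.3 CPM in Control 1 to 3. The groups covered nearly the same range. Cationorm over Control, its log2 fold change was 0.02, with a 95% interval of -0.21 to 0.24 (edgeR adjusted p = 0.955). The gene model Gm28635 shares 61.2% of the exonic length of Ctnnd1 on the same strand in GENCODE M21. The deposited table has no row of that name. How reads in that stretch were assigned is not given in the sources used here, so the level of Ctnnd1 is uncertain.

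Nectin1 and Nectin4 encode immunoglobulin-like adhesion receptors that bind each other across the cell gap. Nectin1 was at 253, 246 and 254 CPM in Cationorm 1 to 3 and 244, 235 and 250 CPM in Control 1 to 3. It was the steadiest member. Its log2 fold change of 0.05 had the narrowest 95% interval of the 9, from -0.08 to 0.18 (edgeR adjusted p = 0.769). Nectin4 was at 426, 451 and 397 CPM in Cationorm 1 to 3 and 395, 375 and 421 CPM in Control 1 to 3. The groups overlapped, since Control 3 exceeded Cationorm 3. Its log2 fold change was 0.10 (95% interval -0.08 to 0.27, edgeR adjusted p = 0.637).

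Afdn encodes afadin, the scaffold that ties nectins to actin. It was at 281, 272 and 243 CPM in Cationorm 1 to 3 and 235, 251 and 257 CPM in Control 1 to 3. Cationorm 3 lay among the Control libraries. The log2 fold change was 0.10 (95% interval -0.07 to 0.28, edgeR adjusted p = 0.625).

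Vcl encodes vinculin, which binds α-catenin under load and also sits in focal adhesions. It was at 82.0, 80.0 and 75.7 CPM in Cationorm 1 to 3 and 65.9, 58.1 and 76.8 CPM in Control 1 to 3. Control 3 was level with Cationorm 3, and the other 2 Control libraries were below every Cationorm library. Its log2 fold change was 0.24 ± 0.11 (SE), with a 95% interval of -0.0038 to 0.49 and an unadjusted p of 0.0528 (edgeR adjusted p = 0.550). Ap3m1 on the opposite strand shares 25.5% of the exonic length of Vcl in GENCODE M21. Vinculin is also abundant in smooth muscle, and the part of the smooth muscle markers given above in this difference was not tested.

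**Figure D2:**
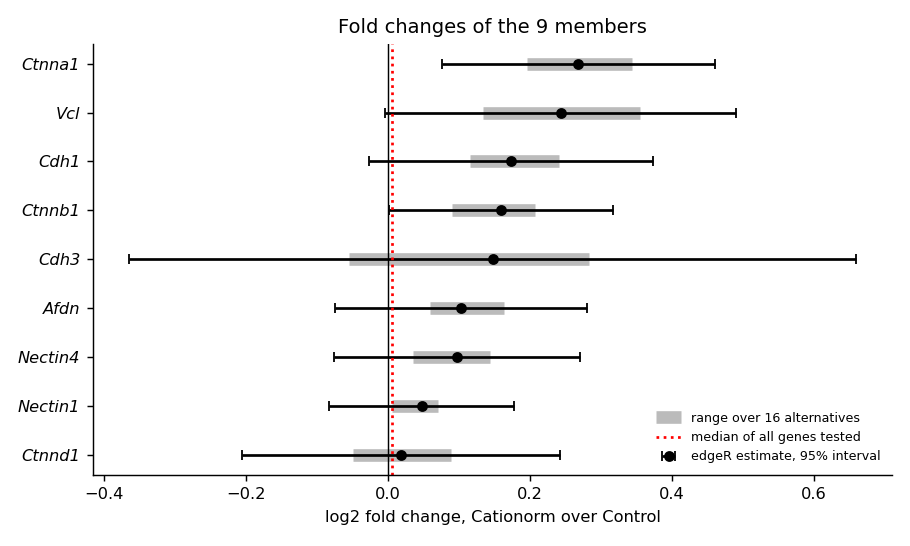
Log2 fold change of Cationorm over Control for each member with its 95% interval from edgeR (black), the range over 16 alternative settings (grey) and the median of all genes tested (dotted red). Ctnna1 (0.27) and Ctnnb1 (0.16) have intervals above 0, and the grey ranges of Cdh3 and Ctnnd1 cross 0.

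Promoter sequence is shown for Vcl and Ctnnb1, which with Ctnna1 had the smallest unadjusted p-values among the members. RefSeq promoters (GRCm38.p6, 250 bases before to 50 after the start) were matched for 5 of the 9 members. None was matched for Cdh1, Cdh3, Ctnna1 or Nectin1, so their promoters were not searched. The search covered both strands for the GC box GGGCGG, the E-box CACCTG that Snail-type repressors bind, the TATA box TATAAA, the TEAD factor motif GGAATG, the TCF factor motif CTTTGA and the CArG box bound by serum response factor, a regulator of actin-linked genes including vinculin. Capitals mark the CArG box in the Vcl promoter (chr14:20929148-20929447, plus strand) and the GC boxes, read on the opposite strand, in the first of the promoters listed for Ctnnb1 (chr9:120933150-120933449, plus strand).
Vcl: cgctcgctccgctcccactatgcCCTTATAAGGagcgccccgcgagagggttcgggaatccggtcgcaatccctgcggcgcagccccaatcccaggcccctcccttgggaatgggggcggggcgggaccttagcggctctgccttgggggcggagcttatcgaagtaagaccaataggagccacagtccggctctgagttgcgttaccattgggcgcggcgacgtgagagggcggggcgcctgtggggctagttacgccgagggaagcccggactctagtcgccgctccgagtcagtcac
Ctnnb1: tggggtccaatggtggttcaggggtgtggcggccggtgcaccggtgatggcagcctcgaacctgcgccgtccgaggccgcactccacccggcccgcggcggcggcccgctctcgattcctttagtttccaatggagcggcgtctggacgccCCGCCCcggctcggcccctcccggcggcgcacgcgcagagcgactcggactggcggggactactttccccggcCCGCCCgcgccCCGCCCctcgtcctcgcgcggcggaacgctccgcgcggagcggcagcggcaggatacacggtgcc
A CArG box was found in the Vcl promoter once and in no other promoter matched to the members, and 1.63% of all 32851 promoters held one. The GC box was found 4 times in Vcl, with a pair of matches overlapping, and 3 times in this Ctnnb1 promoter, and 35.7% of all promoters held it. Of the other motifs, Vcl held GGAATG, found in 14.7% of all promoters, and neither printed promoter held the E-box (20.2% of all), the TATA box (13.6%) or the TCF motif (16%). These matches describe letters, not bound sites.

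Scaled to exonic length, the members covered a wide range. Nectin4, Cdh1, Ctnnb1 and Ctnna1 averaged 110, 106, 102 and 96.7 CPM per kilobase of exon over all 6 libraries, and each overlapped its neighbour in that order. Nectin1 followed at 43.7 and Afdn at 25.1 CPM per kilobase, each apart from its neighbours in every library. Vcl at 8.92 and Ctnnd1 at 7.62 overlapped, and Cdh3 was lowest at 4.79 CPM per kilobase. Exonic length is the union of all annotated exons in GENCODE M21, so a gene with long unused exons is understated.

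Within their families the members held different shares. Cdh1 made up 83.1%, 83.0% and 79.8% of the length-scaled level of 20 cadherin genes in Cationorm 1 to 3 and 82.1%, 81.4% and 81.4% in Control 1 to 3. Cdh3 ranked next with 3.67 ± 0.677% in Cationorm and 3.71 ± 0.988% in Control (SD, n = 3 each). Nectin4 made up 59.2 ± 1.59% of the nectin level in Cationorm and 59.0 ± 0.847% in Control. Among 9 catenins the leading gene was Jup, which encodes plakoglobin, a catenin of both desmosomes and adherens junctions, with 51.9 ± 0.74% in Cationorm and 55.3 ± 3.57% in Control. Ctnnb1 held 18.9 ± 0.53% in Cationorm and 18.3 ± 1.23% in Control, and Ctnna1 held 18.6 ± 0.252% in Cationorm and 16.8 ± 1.44% in Control. These shares were described and not tested.

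**Figure D3:**
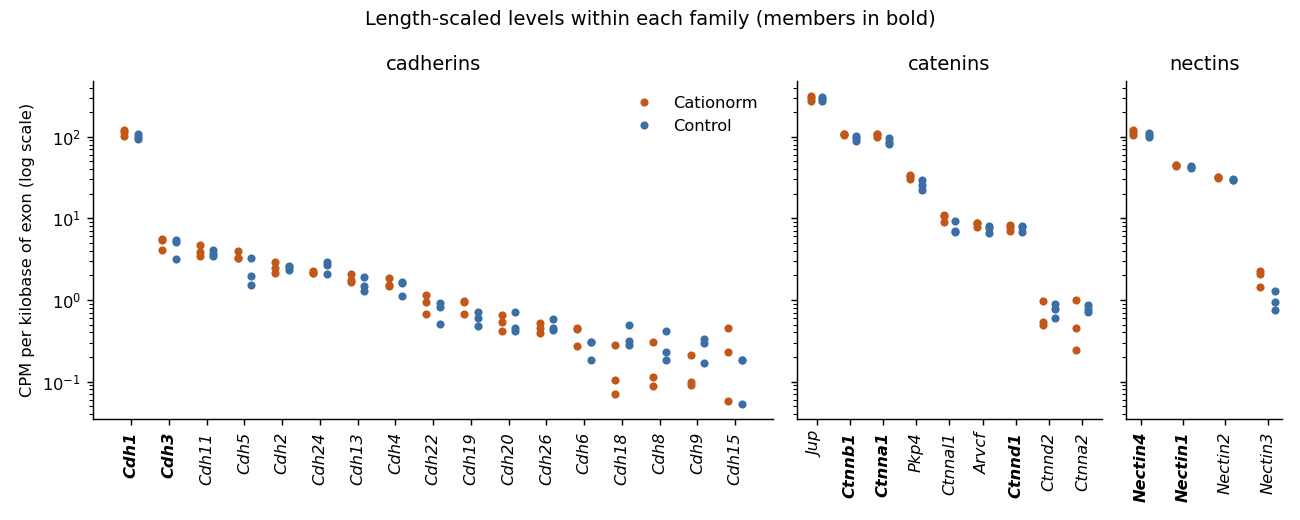
CPM per kilobase of exon on a log axis for cadherins, catenins and nectins in Cationorm (orange, left of each pair) and Control (blue, right) libraries, with the members in bold; 17 of 20 cadherins with a mean of at least 0.1 are drawn. Cdh1 stands above every other cadherin, Jup above every other catenin, and Nectin3 is the lowest nectin.

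Proportions between members across libraries were widest for Cdh3. For each of the 36 pairs the SD of the log2 ratio was taken over the 6 libraries, and the median was 0.118. The tightest pair was Ctnna1 and Vcl (0.0521), then Ctnnb1 and Nectin4 (0.0559) and Ctnnd1 and Afdn (0.0628). The 8 pairs with Cdh3 were the widest of the 36, from 0.278 to 0.345, against 0.0521 to 0.197 for the other pairs. Outside the pairs with Cdh3, the widest were Ctnnd1 with Ctnna1 (0.176) and with Vcl (0.197). Over 9917 genes the median of the same SD to Cdh1 was 0.164. Cdh1 with Cdh3 (0.324) exceeded that, and the other pairs with Cdh1 lay from 0.0667 (Afdn) to 0.117 (Ctnnd1). Ctnna1 counts were 124%, 124% and 118% of Ctnnb1 counts in Cationorm 1 to 3 and 110%, 112% and 117% in Control 1 to 3. Every Cationorm library was above every Control library for this ratio, narrowly so between Cationorm 3 (117.7%) and Control 3 (116.9%). The ratio of Ctnnd1 to Cdh1 ran the other way, with every Cationorm library below every Control library. It was 11.0%, 10.8% and 10.9% in Cationorm 1 to 3 and 11.2%, 13.3% and 11.9% in Control 1 to 3. The gap was narrow here too, between Cationorm 1 (11.01%) and Control 1 (11.18%), and the level of Ctnnd1 is uncertain, as given above. Both are among several ratios computed, do not depend on library scaling and were not tested. The groups overlapped for the rest of those ratios, and the share without overlap over other gene pairs was not computed.

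Averaged over the 9 members, the centred log2 level was 0.14, 0.06 and 0.01 in Cationorm 1 to 3 and -0.16, -0.10 and 0.04 in Control 1 to 3. Control 3 lay above Cationorm 3, so the groups overlapped. Set against the mean log2 level of the 13 epithelial markers in the same library, Ctnna1 was 0.25 and Vcl 0.23 higher in Cationorm than in Control, Cdh1 0.15 higher and Ctnnd1 -0.00812 (Cationorm minus Control). Control 2 had the highest epithelial marker mean (10.3 log2 CPM) and the lowest CPM of the 6 libraries for Cdh1, Ctnna1, Ctnnb1, Nectin1, Nectin4 and Vcl.

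**Figure D4:**
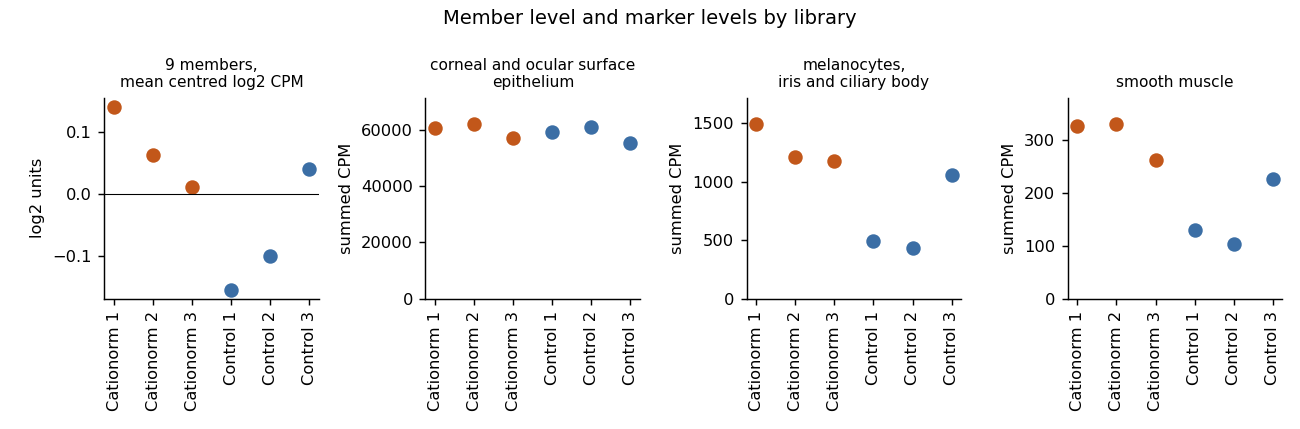
Mean centred log2 CPM of the 9 members and the summed CPM of 3 marker lists in each library, Cationorm in orange and Control in blue. Control 1 and Control 2 are low for the members, the pigment list and the smooth muscle list, while the epithelial sum lies between 55241 and 62032 CPM in every library.

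The genes whose pattern was most like Cdh1, by the SD of the log2 ratio to Cdh1 over the 6 libraries among 9917 genes of at least 10 CPM, were Gapvd1 (0.0142), Fech (0.0216), Aco1 (0.0228), Frs2 (0.0232) and Mrtfb (0.0251). The median of this SD over those genes was 0.164. Most like the mean of the members were Rpap3 (0.0130), Ctsb (0.0196), Haus2 (0.0236), Glmp (0.0236) and Lrch1 (0.0240), against a median of 0.148. These SDs were picked as the smallest of 9917, so they cannot be set against those of the pairs of members. The SD of a member to the mean of the members ran from 0.0543 (Afdn) to 0.278 (Cdh3), with each member part of that mean.

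Beyond the members, 8 lists of adherens junction genes held 99 tested genes, and none passed the edgeR test in either direction (smallest adjusted p = 0.550). DESeq2 called Nectin3 and Ptpn14 among them, against 0.197% of the 32423 genes with a p-value. Without Cationorm 3, edgeR called 1 gene, from the other nectins and nectin-like genes, against 350 over all genes. With an unadjusted edgeR p under 0.05 in all 6 libraries, 19 of the 99 lay higher and 3 lay lower in Cationorm, against 5.16% and 3.57% of all genes. The number higher was 10 with total-count scaling, 3 with the epithelial scaling, 6 without Cationorm 1, 5 without Cationorm 2, 3 without Control 1 and 7 without Control 2. It rose to 22 without Cationorm 3, 27 without Control 3 and 26 with limma-voom sample weights. Every Cationorm library was above every Control library in 17 genes and below in 2, against 8.73% and 6.09% of all genes. The deposited table itself annotates 91 genes with the KEGG adherens junction pathway, among them 8 of the members, all except Cdh3. Of its 82 other tested genes, 49 were higher in Cationorm, 10 of them at an unadjusted p under 0.05, and 2 were lower at that p. Over all genes, 51.2% were above 0, and 5.16% were higher and 3.57% lower at that p.

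The list of actin linkers and scaffolds was the one in which most genes lay on the same side. Of its 22 genes, 21 had a log2 fold change above 0, with a median of 0.16, against 51.2% of all genes, and 19 did so when libraries were scaled by total count or by the epithelial markers. The number at an unadjusted p under 0.05 was 10, all higher, against 5.16% of all genes, and was 4 with total-count scaling, 1 with the epithelial scaling, 2 without Cationorm 1 or without Cationorm 2, 4 without Control 2 and 0 without Control 1. It was 12 without Cationorm 3 or without Control 3, and 13 with limma-voom sample weights. Actn4, a non-muscle α-actinin that crosslinks actin, was the most abundant at 3569 ± 145 CPM in Cationorm and 3323 ± 76.8 CPM in Control. Iqgap1, a scaffold that binds cadherin complexes, was at 529 ± 41.6 CPM in Cationorm and 460 ± 32.6 CPM in Control. Tln1 encodes talin, the partner of vinculin at focal adhesions, and was at 163, 156 and 146 CPM in Cationorm 1 to 3 and 125, 121 and 143 CPM in Control 1 to 3. Plekha7, which links p120-catenin to microtubules, was at 134, 136 and 132 CPM in Cationorm 1 to 3 and 113, 115 and 124 CPM in Control 1 to 3. Actn1, another non-muscle α-actinin, was at 59.7, 41.0 and 43.5 CPM in Cationorm 1 to 3 and 30.8, 37.4 and 35.7 CPM in Control 1 to 3. These 3 genes were named for their small p, and for each the groups did not overlap and the edgeR adjusted p was 0.550. In the list, 6 of 22 genes had every Cationorm library above every Control library, against 8.73% of all genes. The pigment and smooth muscle marker sums were higher in Cationorm too, and their part in these differences was not tested.

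**Figure D5:**
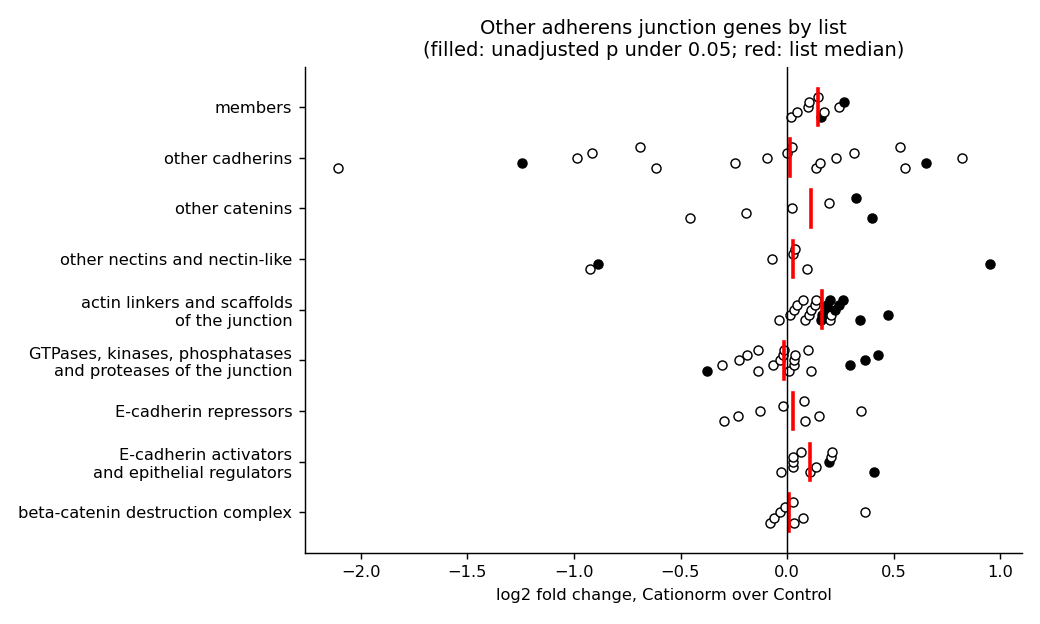
Log2 fold change of Cationorm over Control for the members and for each gene of the 8 other lists; filled points have an unadjusted p under 0.05 and red bars are list medians. Of 22 actin linkers and scaffolds, 21 lie above 0, while the other cadherins are split evenly, 9 above and 9 below.

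Other cadherins were split, 9 of 18 on each side. Cdh11, a cadherin of mesenchymal cells, was at 36.1 ± 5.8 CPM in Cationorm and 32.9 ± 2.81 CPM in Control. Cdh2, N-cadherin, was at 20.1 ± 3.11 CPM in Cationorm and 20.1 ± 1.2 CPM in Control. Cdh5, the cadherin of vascular endothelium, was at 13.7, 16.8 and 13.8 CPM in Cationorm 1 to 3 and 8.18, 6.46 and 13.5 CPM in Control 1 to 3. The summed markers of vascular and lymphatic endothelium, which include Cdh5, were at 100 to 104 CPM in Cationorm and 74.9 to 109 CPM in Control. Cdh18, a type II cadherin of neural tissue, was at 0.317, 0.478 and 1.28 CPM in Cationorm 1 to 3 and 2.25, 1.41 and 1.28 CPM in Control 1 to 3. The 8 retina markers were also lower in Cationorm, and their part in the difference of this neural gene was not tested. Cdh5 and Cdh18 each had an edgeR adjusted p of 0.550.

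Of the other catenins, 4 of 6 tested were above 0. Jup was at 1895 ± 113 CPM in Cationorm and 1863 ± 117 CPM in Control. Pkp4, a p120-related armadillo protein of junctions, was at 194, 191 and 173 CPM in Cationorm 1 to 3 and 148, 128 and 170 CPM in Control 1 to 3, with no overlap. Ctnnal1, an α-catenin-like protein, was at 84.1, 81.9 and 68.3 CPM in Cationorm 1 to 3 and 52.0, 54.0 and 71.7 CPM in Control 1 to 3, and Control 3 exceeded Cationorm 3. The log2 fold change was 0.32 ± 0.11 (SE) for Pkp4 and 0.40 ± 0.14 for Ctnnal1 (edgeR adjusted p = 0.550 for each).

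Of the other nectins and nectin-like genes, 4 of 7 were above 0. Nectin3 binds Nectin1, and in the mouse the pair joins the pigmented and non-pigmented layers of the ciliary epithelium. Its level was 28.7, 26.8 and 18.3 CPM in Cationorm 1 to 3 and 9.71, 11.9 and 16.5 CPM in Control 1 to 3. The groups did not overlap, and the log2 fold change was 0.95 ± 0.24 (SE), with an adjusted p of 0.550 by edgeR and 0.00835 by DESeq2. The iris, ciliary body and pigment markers were highest in Cationorm too, and their part in this difference was not tested. Cadm2, a nectin-like molecule of neurons, was at 11.9, 7.94 and 19.9 CPM in Cationorm 1 to 3 and 24.2, 29.5 and 19.6 CPM in Control 1 to 3 (edgeR adjusted p = 0.550). The retina markers, lower in Cationorm as given above, were lowest in Cationorm 2, as was Cadm2, and their part was not tested. Cadm4 was at 107 ± 10.5 CPM in Cationorm and 113 ± 24.8 CPM in Control, and Cadm1 at 111 ± 4.07 CPM in Cationorm and 108 ± 7.76 CPM in Control.

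In the list of GTPases, kinases, phosphatases and proteases, 9 of 19 genes were above 0. Cdc42 was at 502 ± 30.9 CPM in Cationorm and 508 ± 42.4 CPM in Control, and Rac1, which overlaps Daglb over 51.4% of its exonic length, was at 388 ± 22.9 CPM in Cationorm and 379 ± 15.8 CPM in Control. Both encode small GTPases that shape junctional actin. Ptpn14, a phosphatase that binds junction proteins and restrains the co-activator YAP, was at 52.5, 53.8 and 53.2 CPM in Cationorm 1 to 3 and 41.8, 35.2 and 41.7 CPM in Control 1 to 3. Its log2 fold change was 0.43 ± 0.08 (SE), with no overlap and an adjusted p of 0.550 by edgeR and 0.0438 by DESeq2. Ptprk, a receptor phosphatase of cell contacts, was at 68.8, 66.3 and 63.4 CPM in Cationorm 1 to 3 and 53.8, 46.3 and 61.8 CPM in Control 1 to 3. Rap1a, a small GTPase that promotes cadherin adhesion, was at 60.2, 59.2 and 58.1 CPM in Cationorm 1 to 3 and 70.2, 97.4 and 62.9 CPM in Control 1 to 3. Ptprk and Rap1a had an edgeR adjusted p of 0.550 each.

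No regulator of E-cadherin transcription passed the test. Of 8 repressors, 4 were above 0 and none had an unadjusted p under 0.05. Tcf3, the E-protein E2A, was at 71.9 ± 4.71 CPM in Cationorm and 73.0 ± 0.606 CPM in Control, and Tcf4, a related E-protein, at 53.3 ± 5.41 CPM in Cationorm and 50.3 ± 1.01 CPM in Control. Snai2, the repressor Slug, was named after its values were seen, at 17.0 ± 1.30 CPM in Cationorm and 20.8 ± 4.25 CPM in Control, with overlap. Snai1, named likewise, went the other way, at 1.96 ± 0.0453 CPM in Cationorm and 1.54 ± 0.113 CPM in Control. It was the 1 repressor of 8 with every Cationorm library above every Control library, against 8.73% of all genes. Of 11 activators and epithelial regulators, 10 were above 0, with a median of 0.11, and 7 were above 0 with total-count or epithelial scaling. Klf4 was at 1055 ± 85.1 CPM in Cationorm and 1037 ± 27.1 CPM in Control, and Elf3 at 684 ± 43.0 CPM in Cationorm and 634 ± 29.1 CPM in Control, both epithelial transcription factors. Ovol1, a repressor of mesenchymal genes, was at 48.0, 62.7 and 48.5 CPM in Cationorm 1 to 3 and 35.0, 37.7 and 47.6 CPM in Control 1 to 3. Esrp1, an epithelial splicing regulator, was at 403, 379 and 350 CPM in Cationorm 1 to 3 and 321, 312 and 356 CPM in Control 1 to 3. The edgeR adjusted p was 0.550 for both.

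The complex that degrades free β-catenin had 4 of 8 genes above 0 and none at an unadjusted p under 0.05, and 2 of 8 were above 0 with total-count or epithelial scaling. Csnk1a1, the kinase that primes β-catenin for degradation, was at 383 ± 22.6 CPM in Cationorm and 400 ± 42.03 CPM in Control. Apc, a scaffold of the complex, was at 130 ± 7.73 CPM in Cationorm and 131 ± 5.06 CPM in Control.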

How the data were processed

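The authors deposited unnormalised whole-number counts for each gene symbol, per the file headers, from mRNA-enriched TruSeq libraries, per the labels' protocols. Per the submitters' processing notes, DESeq2 and the builds GRCm39 and mm39 were used, with no role stated. Which aligner, counter, annotation and strand setting served is not given in the sources used here. Libraries were matched by the names in the labels, which give 1 batch. Counts of 6 libraries were filtered with filterByExpr, TMM-normalised and tested with edgeR 4.0.16 (quasi-likelihood, no covariate, Benjamini-Hochberg at 0.05) in R 4.3.3. SEs come from the F statistic, and 95% intervals from the moderated t distribution. DESeq2 1.42.0 and limma 3.58.1 served as alternatives. A count of 0 allows up to 0.0765 to 0.0923 CPM (3 counts, counting error only). Replicates differed by more than sampling noise, with a chi-square at least 20.8 times its degrees of freedom. By that measure Control 3 was closer to Cationorm 3 (11.3) and Cationorm 2 (15.2) than any replicates were to each other. The procedure was tested on simulated data in which every planted change was larger than that of any member. Exonic lengths and overlapping genes come from GENCODE M21 (GRCm38), an older build, so no gene coordinates are given, and promoters from RefSeq (GRCm38.p6). Members and lists were chosen with earlier results of these data known. Every member is named, and from each other list the 2 most abundant genes and up to 3 with the smallest unadjusted p under 0.05. Snai1 and Snai2 are named outside that rule. Of the markers, 1 gene is not reported here.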

Additional observations from a re-analysis of the deposited data

How the results depend on the processing

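No member was called in any of the 16 alternatives (other scalings, filters and tools, the replicate block, each library left out), with the smallest adjusted p at 0.164 for Ctnna1 without Cationorm 3. Over all genes edgeR called 0, DESeq2 64, and fits with 1 library left out between 0 and 350, with 350 without Cationorm 3, 8 without Control 3 and 1 without Control 2. An unadjusted p under 0.05 was reached by 1641 genes with edgeR and 1793 with DESeq2, which ran without filterByExpr. The median log2 fold change of the members was 0.117 with total-count scaling, 0.125 with epithelial scaling and 0.0931 to 0.207 as each library was left out. It was lower by over 1.5 times without Cationorm 1 (0.0947), Control 1 (0.0934) or Control 2 (0.0931). Ctnnd1 changed sign with total-count (-0.0166) and epithelial (-0.0117) scaling and lay between -0.0489 and 0.0882 as each library was left out, and Cdh3 between -0.0556 and 0.266. The Cdh3 to Cdh1 difference lay between -0.229 and 0.175 as each library was left out, above 0 without Cationorm 2 (0.161), Control 2 (0.175) or Control 3 (0.0518). The causes were not tested. With the replicate number as a block the median was 0.161, 0 members were called and the Cdh3 to Cdh1 difference stayed at -0.000734. Same-numbered libraries did not deviate together (r of -0.199, -0.343 and -0.209), so the numbers are not taken as pairs. Differently numbered libraries gave r from -0.188 (Cationorm 1 with Control 3) to 0.42 (Cationorm 2 with Control 3). Among these, r was 0.351 for Cationorm 1 with Control 2 and 0.258 for Cationorm 3 with Control 1. The block moved the actin linkers at an unadjusted p under 0.05 to 2, against 10 without it. The settings for the other lists were chosen after seeing the data. The members had at least 556 counts in every library, and which limit weighs most was not tested.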
